A study of Mus musculus with 12 samples.

Results

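The 10 keratin genes of interfollicular and activated epidermis were Krt5, Krt14 and Krt15 of the basal layer, Krt1 and Krt10 of the suprabasal layers, Krt6a, Krt6b, Krt16 and Krt17 of wounded or activated epidermis, and Krt79. They were taken by gene name from the 54232 genes of the count table, in which 54 genes have a keratin name. The 12 samples were subcutaneous tumors of SVR cells, a mouse angiosarcoma line that the labels list as C57BL/6, grown in the flanks of athymic nude mice of 8 to 12 weeks. Mice received by daily gavage vehicle (control), trametinib, an inhibitor of MEK, at 1 mg/kg, cediranib, an inhibitor of the VEGF receptors, at 3 mg/kg, or both drugs at these doses (combination), with 3 tumors in each group. Treatment began 3 to 7 days after injection, and the labels give ulceration or a size over 1 cm as its end. The paper describes an experiment that ended by tumor size or ulceration and another with a shared day of harvest. The end in the labels is that of the former. Neither labels nor methods name the experiment or say how long each tumor was treated. RNA came from the whole tumor, so tumor cells, stroma and any skin taken with the tumor were read together, all of them mouse. Nude mice lack T cells, and their hair follicles do not make normal hair, which limits them as a model of skin.

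Libraries held between 9478865 and 11666094 counts. At these depths 3 counts, the limit that a count of 0 allows, equalled 0.251 to 0.349 CPM, a gene's count scaled to a fixed library total, and this limit covers counting error only. All levels are CPM after TMM normalization, in which the totals are rescaled so that most genes are level between tumors. Each of the 10 keratins was among the 12897 genes that passed the filter on low counts, a filter that a gene can pass through 1 group in which it is high.

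Keratins are the intermediate filament proteins of epithelial cells, and a type I keratin always pairs with a type II keratin to form a filament. In mouse skin Krt5 and Krt14 form the pair of the basal layer, where the dividing keratinocytes lie, and Krt1 and Krt10 replace them once a cell leaves that layer to differentiate. Krt6a, Krt6b, Krt16 and Krt17 are held low in resting interfollicular epidermis, are switched on at wound edges and in hyperproliferation, and are made constantly in parts of the hair follicle. Krt15 marks basal cells and the stem cells of the follicle bulge, and Krt79 marks the infundibulum, the mouth of the follicle. Endothelial cells, from which SVR derives, are not known for these keratins.

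All 10 genes lie on the minus strand. The type I genes Krt10 (chr11:99385254-99389364), Krt15 (chr11:100131758-100135928), Krt14 (chr11:100203162-100207548), Krt16 (chr11:100246091-100248902) and Krt17 (chr11:100256217-100261029) sit in the cluster on chromosome 11 of GRCm38. The type II genes Krt6b (chr15:101676023-101680287), Krt6a (chr15:101689910-101694307), Krt5 (chr15:101707070-101712898), Krt1 (chr15:101845426-101850794) and Krt79 (chr15:101929332-101940324) sit in the cluster on chromosome 15. On the opposite strand Krt10 overlaps Gm11940, Krt6b overlaps Gm44383, Krt6a overlaps Gm44342 and Gm49428 (AC120787.5 in the count table), and Krt5 overlaps Gm44323. Neither the labels nor the methods say whether counting used the strand, so reads of these pairs cannot be told apart.

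The keratins also share coding sequence, and Krt6a, Krt6b and Krt16 share the most. Of all windows of 50 bases, the read length, 57.2% in the exons of Krt6a and 50.1% in those of Krt6b occur in another gene too, and 972 windows are common to these paralogs. The share was 37.6% for Krt16, 13.9% for Krt14, 12.2% for Krt5, 3.995% for Krt17, 2.37% for Krt10 and 0.640% for Krt15, and it was 0% for Krt1 and Krt79. Levels of Krt6a and Krt6b, and that of Krt16, are therefore uncertain to the extent that their counting could split or drop such reads. Reads were sequenced in pairs, so a mate outside a shared window can still place a read. Stretches are shown for Krt6a with Krt6b and Krt14 with Krt16, and a read cannot be assigned where it and its mate both fall inside. A run of 140 bases that Krt5 and Krt6a have in common across exons 1 and 2 is not shown. The first, of 280 bases, lies in exon 1 of Krt6a (chr15:101693936-101694215) and of Krt6b (chr15:101679911-101680190). The second, of 134 bases, lies in exon 1 of Krt14 (chr11:100207017-100207150) and of Krt16 (chr11:100248476-100248609). Both were read on the minus strand of GRCm38 by the GENCODE M21 annotation, and they are in lower case throughout because every base is shared.
Krt6a and Krt6b: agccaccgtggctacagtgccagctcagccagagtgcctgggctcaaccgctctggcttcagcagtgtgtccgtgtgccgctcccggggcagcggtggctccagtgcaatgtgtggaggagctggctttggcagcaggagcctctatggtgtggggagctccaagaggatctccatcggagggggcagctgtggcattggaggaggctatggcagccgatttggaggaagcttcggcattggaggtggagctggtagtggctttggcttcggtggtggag
Krt14 and Krt16: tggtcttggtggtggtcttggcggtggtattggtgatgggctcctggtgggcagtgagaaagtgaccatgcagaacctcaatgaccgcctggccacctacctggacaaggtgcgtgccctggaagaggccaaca

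Start regions are shown for Krt5 and Krt10, a basal and a suprabasal keratin whose levels moved together across the tumors. RefSeq sequences for GRCm38.p6 gave the 250 bases before the start of Krt5 (chr15:101712906-101713155) and of Krt10 (chr11:99389365-99389614), both on the minus strand, with capitals for matches to CACCC on either strand and to TATAAA. Krt5 held 3 matches to CACCC, and Krt10 held 1 match to CACCC and 1 to TATAAA, whose first base lay 26 bases before the start. CACCC is in 52% and TATAAA in 12.4% of all 32851 such regions, and TGANTCA, the AP-1 motif, in 6.75% but in neither of these.
Krt5: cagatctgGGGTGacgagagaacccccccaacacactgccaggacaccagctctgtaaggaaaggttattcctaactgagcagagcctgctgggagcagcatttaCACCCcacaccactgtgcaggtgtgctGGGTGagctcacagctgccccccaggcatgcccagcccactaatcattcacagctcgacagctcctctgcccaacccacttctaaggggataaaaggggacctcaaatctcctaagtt
Krt10: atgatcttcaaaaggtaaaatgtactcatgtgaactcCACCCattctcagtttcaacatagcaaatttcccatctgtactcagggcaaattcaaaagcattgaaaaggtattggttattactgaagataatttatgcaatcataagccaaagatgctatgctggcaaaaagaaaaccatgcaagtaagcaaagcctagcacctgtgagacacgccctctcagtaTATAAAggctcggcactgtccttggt

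The summed level of the 10 keratins separated the tumors into very high and very low ones. It was 4331, 6845 and 4837 CPM in combination replicates 1 to 3 and 7.63, 6.40 and 1.42 CPM in trametinib replicates 1 to 3. Cediranib treated tumors had 5255, 6.62 and 2745 CPM, and control tumors had 778, 11.6 and 5.25 CPM. High sums were thus present in all 3 combination treated tumors, in cediranib replicates 1 and 3 and, at a lower level, in control replicate 1, while no trametinib treated tumor had one. The libraries of control replicate 1 and cediranib replicate 2 stood apart from the others of their group, and results that rest on them are given below with and without them. In whole tumor RNA, fewer cells of a type and less RNA per cell cannot be told apart.

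**Figure D1:**
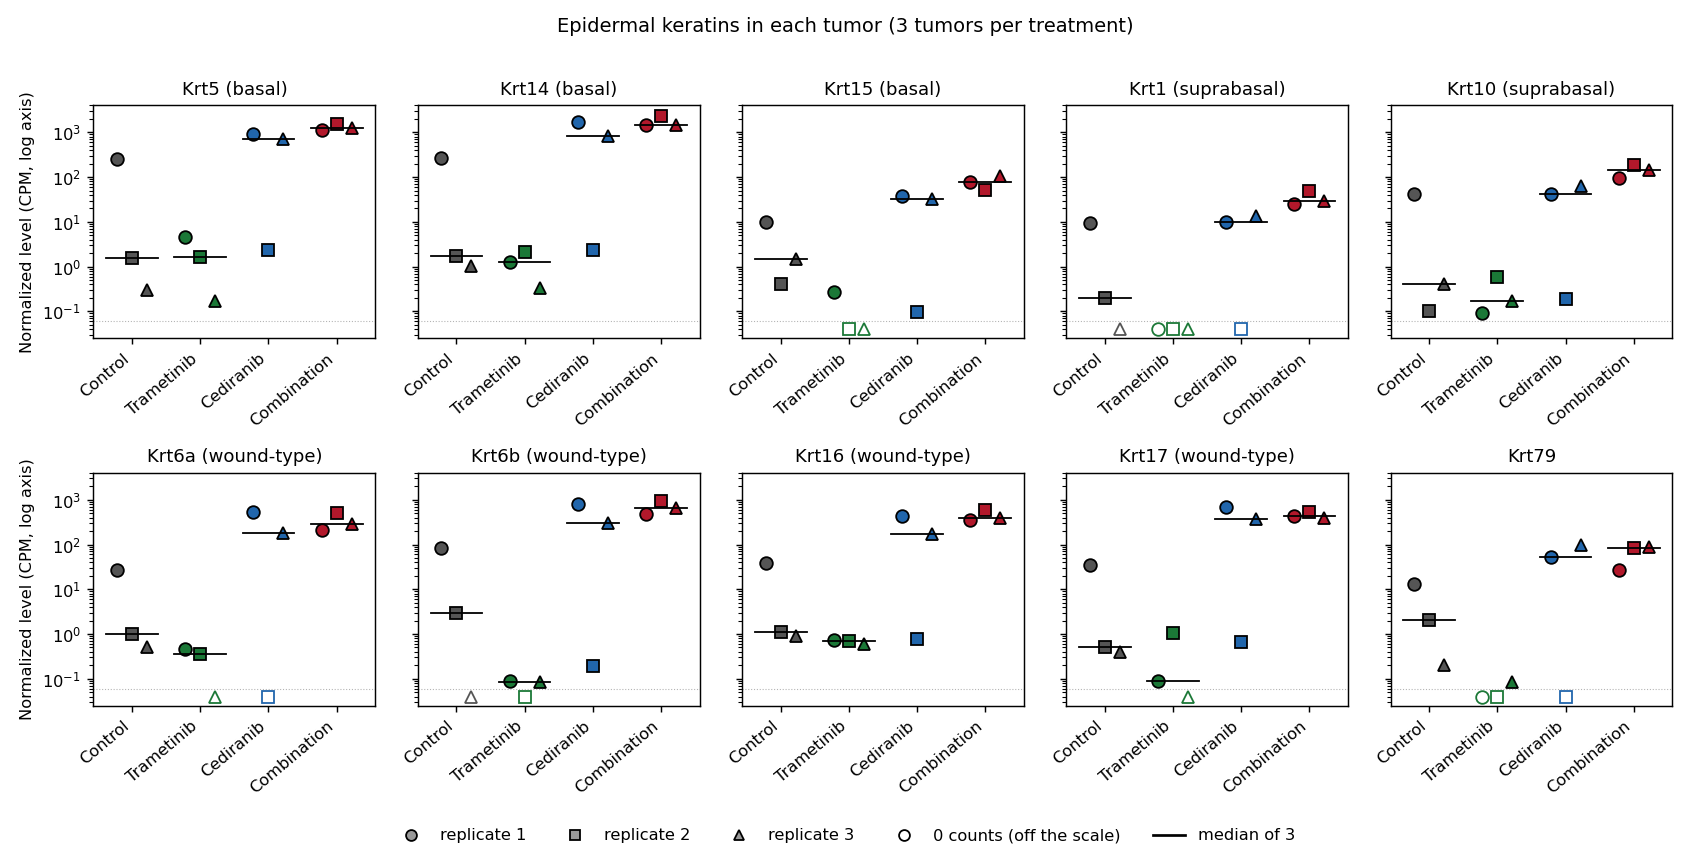
Each panel shows the normalized level of 1 keratin (CPM, log axis) in the 12 tumors, grouped by treatment on the horizontal axis, with marker shapes for replicates 1 to 3, a line at the median of 3, and open markers below the dotted line for tumors with 0 counts. In every panel the 3 combination treated tumors lie above all control and all trametinib treated tumors, in 6 of the 10 a cediranib treated tumor reaches or passes the lowest of them, cediranib replicate 2 sits far below cediranib replicates 1 and 3, and control replicate 1 sits far above control replicates 2 and 3.

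Among the basal keratins, Krt14, the type I partner of the basal layer, had 1486, 2340 and 1499 CPM in combination replicates 1 to 3 and 1694, 2.36 and 821 CPM in cediranib replicates 1 to 3. The controls stood at 266, 1.72 and 1.01 CPM, and the tumors that received trametinib alone at 1.27, 2.09 and 0.335 CPM, again for replicates 1 to 3. The combination treated tumors lay above all control and all trametinib treated tumors, and overlapped with those treated with cediranib, of which replicate 1 was above combination replicates 1 and 3.

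Krt5, the type II partner of Krt14, had 1143, 1580 and 1228 CPM with the combination and 942, 2.36 and 702 CPM with cediranib. Its level was 254, 1.52 and 0.303 CPM in control tumors and 4.63, 1.63 and 0.167 CPM with trametinib. For Krt5 the combination treated tumors lay above the 9 others, without overlap.

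Krt15, the basal and bulge keratin, was much less abundant than Krt14 in raw counts, with 2460 counts over the 3 combination treated tumors against 56635. It had 76.9, 51.3 and 105 CPM with the combination and 38.7, 0.0946 and 33.1 CPM with cediranib, in replicates 1 to 3. It had 9.96, 0.405 and 1.52 CPM in control tumors, and 0.272, 0 and 0 CPM in trametinib treated tumors. The combination was above the 9 other tumors, and all 3 trametinib treated tumors were below all 3 controls.

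Of the suprabasal keratins, Krt10, which marks the first differentiated layer with its partner Krt1, had 96.0, 183 and 142 CPM with the combination and 43.0, 0.189 and 64.02 CPM with cediranib. Control tumors had 42.1, 0.101 and 0.404 CPM, and trametinib treated tumors had 0.0908, 0.582 and 0.167 CPM. Control replicate 1 therefore reached the level of cediranib replicate 1 for Krt10, whereas for Krt14 it was well below it.

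Krt1 had 25.1, 48.1 and 28.9 CPM with the combination, 9.79, 0 and 13.6 CPM with cediranib and 9.45, 0.203 and 0 CPM in control tumors. With trametinib each of the 3 tumors had 0 counts. Set against 3 counts over that group, the 1090 counts of the combination group made Krt1 at least 362-fold higher with the combination than with trametinib. For both suprabasal keratins the combination treated tumors were above the 9 others.

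Of the wound-type keratins, Krt6b, a type II keratin of activated epidermis, had 483, 932 and 664 CPM with the combination and 812, 0.189 and 301 CPM with cediranib. Control tumors had 82.6, 2.94 and 0 CPM, and trametinib treated tumors had 0.0908, 0 and 0.0837 CPM. With 22205 counts against 2, the pooled ratio of combination to trametinib for Krt6b was 11054 (95% interval 3060 to 91283, counting error only).

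Krt6a, its close paralog, had 211, 494 and 288 CPM with the combination, 521, 0 and 180 CPM with cediranib, 26.7, 1.01 and 0.505 CPM in control tumors and 0.454, 0.349 and 0 CPM with trametinib. Krt16, a type I keratin of activated epidermis, had 351, 601 and 397 CPM with the combination, 439, 0.757 and 169 CPM with cediranib, 39.6, 1.11 and 0.909 CPM in control tumors and 0.726, 0.698 and 0.586 CPM with trametinib. Krt17, another type I keratin of activated epidermis and of the follicle, had 431, 532 and 397 CPM with the combination, 702, 0.662 and 363 CPM with cediranib, 34.0, 0.507 and 0.404 CPM in control tumors and 0.0908, 1.05 and 0 CPM with trametinib. In all 4 wound-type genes the combination lay above control and trametinib, and cediranib replicate 1 fell within or above the range of the combination. Krt17 was highest in cediranib replicate 1 of all 12 tumors.

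Krt79, of the infundibulum, had 27.6, 83.7 and 88.9 CPM with the combination and 52.1, 0 and 97.7 CPM with cediranib. It had 13.3, 2.03 and 0.202 CPM in control tumors and 0, 0 and 0.0837 CPM in trametinib treated tumors. Here cediranib replicate 3 was the highest of the 12 tumors, and combination replicate 1 was the lowest of its group.

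To ask whether these differences exceeded the spread between tumors, a model was fitted to all genes with edgeR's quasi-likelihood test, and a gene was called at an FDR (Benjamini-Hochberg over all 12897 genes) of 0.05 or less where its log2 fold change was also 1.5 or more in size. The 3 control tumors enter each comparison against control, and the other groups also enter several comparisons, so the comparisons are not independent of each other.

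Between combination and trametinib treated tumors, 1 of the 10 keratins was called, against 0.535% of all genes called higher. This was Krt15, higher by 9.51 on the log2 scale (standard error 1.83) at an FDR of 0.0399 by edgeR with Benjamini-Hochberg adjustment. The estimates for the 9 others did not pass, with FDRs from 0.0557 to 0.0828 by edgeR. Leaving aside Krt1, which is given by its bound, they lay between 9.03 for Krt10 and 13.17 for Krt6b on the log2 scale. The median over the members was 9.89 with Krt1 at its bound, and the median over all genes was -0.01. In 10 of 10 keratins the 3 combination treated tumors lay above the 3 trametinib treated tumors, against 12.4% of all genes. With any of the 6 libraries left out no keratin was called, and 0% to 0.157% of all genes were. All 10 were called by DESeq2, by the likelihood ratio test of edgeR and in a fit of these 2 groups alone, which in either direction called 2.69%, 3.11% and 2.27% of all genes.

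Against control, the combination likewise gave a call for Krt15 alone among the 10 keratins, with 1.91% of all genes called higher. It was higher by 4.25 on the log2 scale (standard error 1.20) at an FDR of 0.0436 by edgeR with Benjamini-Hochberg adjustment. The basal pair had log2 fold changes of 3.95 (standard error 1.87) for Krt5 and 4.30 (standard error 1.87) for Krt14. The suprabasal pair had 3.36 (standard error 1.39) for Krt1 and 3.28 (standard error 1.43) for Krt10. Estimates for the wound-type genes were 4.59 (standard error 1.77) for Krt6b, 5.00 (standard error 1.55) for Krt16, 5.10 (standard error 1.65) for Krt6a and 5.26 (standard error 1.69) for Krt17. Krt79 had 3.65 (standard error 1.34). FDRs of the 9 keratins without a call ran from 0.0613 for Krt16 to 0.196 for Krt5. Their unadjusted p was under 0.05 in all but Krt5.

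The median log2 fold change of the members between combination and control was 4.28, beside 0.00 for all genes. In 10 of 10 keratins the combination treated tumors lay above all controls, against 15.6% of all genes. Control replicate 1 set much of the spread: without it 9 keratins were called, with a median of 8.82, against 4.29% of all genes called in either direction, and Krt79 was the one without a call. Without any other of these 6 libraries, 0 were called. DESeq2 called Krt16 and Krt17 here, but not Krt15, and 4.74% of all genes in either direction.

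Between cediranib treated and control tumors 0 of the 10 keratins were called, as were 0% of all genes by edgeR, while 5 keratins and 557 of all genes had an unadjusted p under 0.05. DESeq2 also called 0 of the 10, and 0.0775% of all genes. All 10 estimates were positive, from 1.23 (standard error 1.35) for Krt1 to 4.91 (standard error 1.67) for Krt17, with a median of 3.23. Estimates for the wound-type genes were 3.69 (Krt6b), 3.85 (Krt16), 4.6 (Krt6a) and 4.91 (Krt17), while Krt10 had 1.31 (standard error 1.36). For 0 of 10 keratins did the groups separate, since control replicate 1 lay above cediranib replicate 2, beside 4.31% of all genes with cediranib above control. These estimates rest on control replicate 1: without it the median was 7.79, with 6.09 for Krt1, 7.06 for Krt10, 9.20 for Krt5, 9.24 for Krt14 and 9.56 for Krt17. Without cediranib replicate 2 the median was 3.81, without cediranib replicate 3 Krt1 and Krt10 had 0.55 and 0.58, and with each of the 6 libraries left out 0 keratins were called.

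Between trametinib treated and control tumors 0 of the 10 keratins were called lower by edgeR, against 1.43% of all genes, with 9 keratins at an unadjusted p under 0.05. DESeq2 called 5 of them lower (Krt6b, Krt10, Krt14, Krt15 and Krt79), and 3.29% of all genes in either direction. The median log2 fold change was -5.28 with Krt1 at its bound, at which it was at least 37.7-fold lower with trametinib. This median rests on control replicate 1: without it the estimate for Krt5 was 1.20 instead of -5.31, and that for Krt14 was -0.23 instead of -6.24. In 4 of 10 keratins (Krt6a, Krt15, Krt16 and Krt79) all trametinib treated tumors lay below all controls, against 12.9% of all genes.

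Between combination and cediranib treated tumors 0 of the 10 keratins were called by edgeR, against 2.45% of all genes, and 0 had an unadjusted p under 0.05. DESeq2 called 0 as well, against 3.08% of all genes. Estimates ran from 0.35 (standard error 1.39) for Krt17 to 2.13 (standard error 1.30) for Krt1, with Krt10 at 1.97 (standard error 1.35) and Krt15 at 1.70 (standard error 1.05). Without cediranib replicate 2 those of Krt6a, Krt17 and Krt79 became -0.08, -0.24 and -0.17. In 4 of 10 keratins (Krt1, Krt5, Krt10 and Krt15) the combination lay above all 3 cediranib treated tumors, against 14.1% of all genes.

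The interaction, which asks whether trametinib changed the keratins differently with cediranib than without it, gave 0 calls among the 10 keratins and 0% of all genes by edgeR. Estimates ran from 5.49 (standard error 2.80) for Krt17 to 10.25 for Krt1, a value that depends on the 0 counts of Krt1 with trametinib. FDRs lay between 0.654 and 0.726, and 8 of the 10 had an unadjusted p under 0.05. DESeq2 called 0 of the 10, and 0.217% of all genes. The estimates rest on control replicate 1: without it Krt5 had 0.07, Krt17 0.85, Krt14 1.32 and Krt10 1.98, and the median fell from 7.14 to 2.02. Without trametinib replicate 2 that of Krt17 was 8.09, and with each library left out 0 keratins were called.

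**Figure D2:**
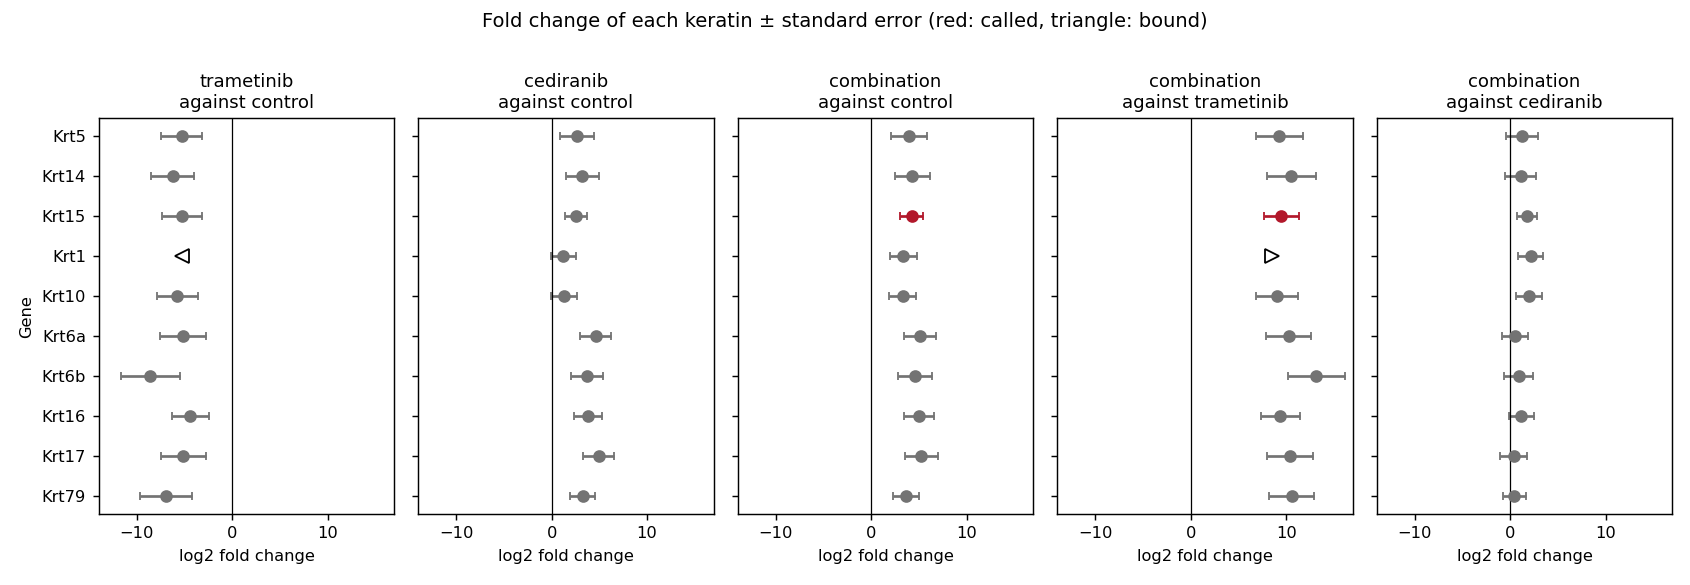
Each panel shows 1 comparison, with the log2 fold change of each keratin on the horizontal axis, bars of 1 standard error from edgeR, red for the called gene and open triangles for the bound of Krt1 against the trametinib group with 0 counts. All estimates are below 0 for trametinib against control and above 0 in the other 4 panels, and Krt15 is the 1 called keratin with the combination against control and against trametinib.

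How the keratin counts were divided among the classes was compared as shares of the counts of the 10 genes. The 3 combination treated tumors were alike: basal keratins made up 62.5%, 58.0% and 58.5%, wound-type keratins 34.1%, 37.4% and 36.1%, and suprabasal keratins 2.80%, 3.38% and 3.53% in replicates 1 to 3. Means were 59.7% ± 2.43 (SD, n = 3) for basal, 35.9% ± 1.66 for wound-type, 3.23% ± 0.386 for suprabasal keratins and 1.23% ± 0.601 for Krt79. Cediranib replicate 1 had a larger wound-type share, 47.1% (95% Clopper-Pearson interval 46.7% to 47.5%), and a smaller suprabasal share, 1.00% (interval 0.920% to 1.09%). Cediranib replicate 3 had 36.9% wound-type and 2.83% suprabasal counts, which is within the range of the combination treated tumors. Its basal share, 56.7% (interval 56.1% to 57.3%), was below that of all 3 of them. Its Krt79 share, 3.56% (interval 3.35% to 3.78%), was above that of all 3.

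Control replicate 1 was composed differently from the other tumors with many keratin counts. Its basal share was 68.1% (Clopper-Pearson interval 67.2% to 69.1%), its suprabasal share 6.63% (6.12% to 7.16%) and its wound-type share 23.5% (22.7% to 24.4%), over 9131 counts. The suprabasal share was thus above, and the wound-type share below, that of each combination treated tumor and of cediranib replicates 1 and 3. The remaining 6 tumors had only 17 to 114 counts for the 10 genes together, so their shares are wide: with trametinib the basal share was 81.0% (interval 70.9% to 88.7%), 58.2% (44.1% to 71.3%) and 35.3% (14.2% to 61.7%). In control replicate 2, Krt79 made up 17.5% (interval 11.1% to 25.8%) of 114 counts, the highest Krt79 share among the 12 tumors. These intervals cover counting error only.

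**Figure D3:**
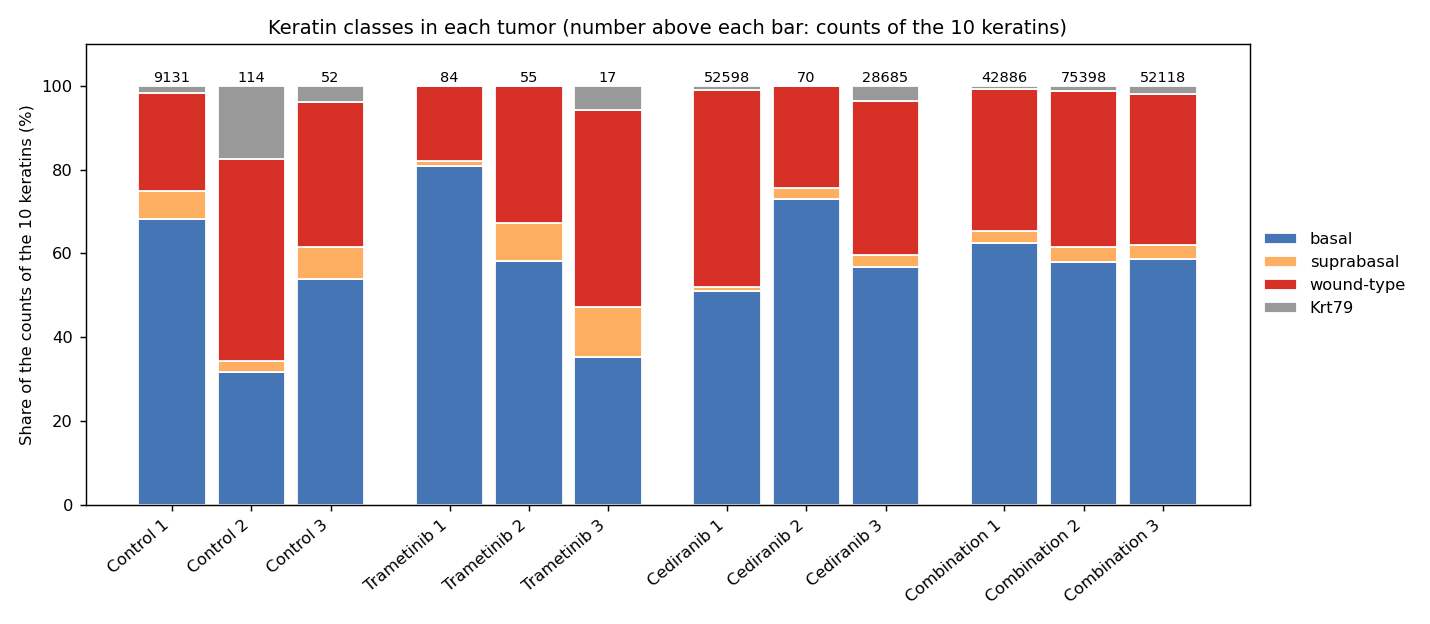
Bars show, for each tumor, the percent of the counts of the 10 keratins that fell on basal (Krt5, Krt14, Krt15), suprabasal (Krt1, Krt10) and wound-type (Krt6a, Krt6b, Krt16, Krt17) genes and on Krt79, with the number of counts above each bar. Basal keratins make up 58.0% to 62.5% in the 3 combination treated tumors, and the bars that depart most from this rest on 114 counts or fewer.

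Ratios between members were tested for each drug by an exact permutation test of the mean log2 ratio that exchanged tumors within the levels of the other drug (two-sided, 400 arrangements, smallest possible p 0.005), with 10 tests adjusted together. The suprabasal to basal ratio of Krt10 to Krt14 was -3.94, -3.67 and -3.40 in combination replicates 1 to 3, -5.29, -2.06 and -3.67 in cediranib, -2.65, -1.89 and -0.74 in control and -1.58, -1.26 and -0.32 in trametinib replicates 1 to 3, on the log2 scale. Its mean was lower by 2.26 in the 6 tumors that received cediranib than in the 6 that did not (exact permutation p = 0.01, adjusted 0.0833). The ratio of Krt1 to Krt5 differed by -2.97 (exact permutation p = 0.025, adjusted 0.0833) and that of Krt15 to Krt14 by -2.67 (exact permutation p = 0.025, adjusted 0.0833).

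None of the ratio differences passed the adjustment. That of Krt16 to Krt14 was -1.13 (exact permutation p = 0.05, adjusted 0.125) and that of Krt6a to Krt5 was -0.67 (exact permutation p = 0.305, adjusted 0.61). For trametinib the 5 differences lay between -0.29 and 0.35, with exact permutation p of at least 0.545. Because 0.5 CPM was added to both levels, a ratio in a tumor with few counts is pulled toward 0, and the low tumors had at most 51 counts of Krt5 and 25 of Krt14. The only tumor without cediranib that had many keratin counts was control replicate 1, so this pull lines up with the cediranib split. The test therefore cannot tell a change in composition from a low level. Without control replicate 1, all tumors without cediranib were low ones. In that setting the 3 ratios with the smallest p, and that of Krt16 to Krt14, passed for cediranib. The differences were -2.49 (Krt10 to Krt14), -3.56 (Krt1 to Krt5), -3.38 (Krt15 to Krt14) and -1.54 (Krt16 to Krt14). Without cediranib replicate 2, Krt10 to Krt14 (-2.67) and Krt1 to Krt5 (-3.56) reached an adjusted exact permutation p of 0.05.

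**Figure D4:**
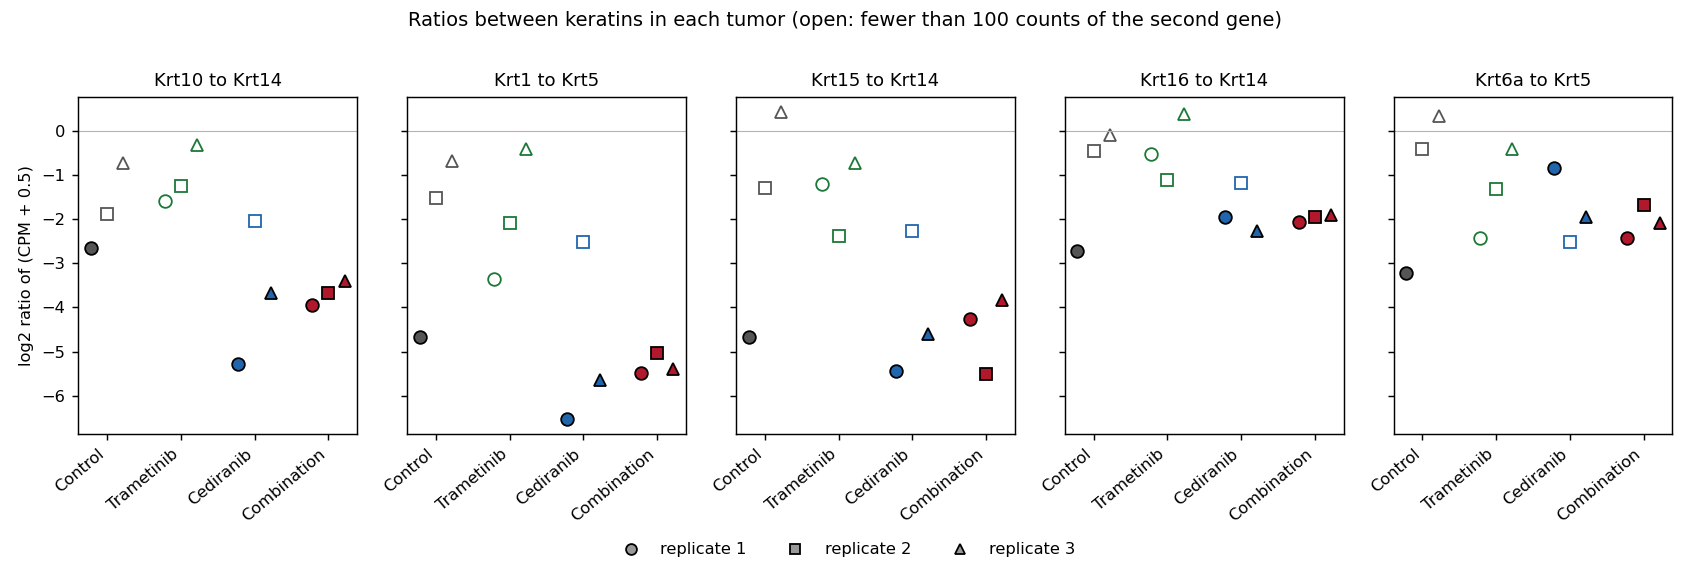
Each panel shows 1 ratio of levels, as log2 of (CPM + 0.5), in the 12 tumors by treatment, with marker shapes for replicates 1 to 3 and open markers where the second gene had fewer than 100 counts. The open markers lie nearer to 0 than most of the filled ones, and for Krt10 to Krt14 the filled markers run from -5.29 in cediranib replicate 1 to -2.65 in control replicate 1.

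Per kilobase of exon, Krt14 had the highest level of the 10 keratins in each combination and each cediranib treated tumor and in control replicate 1. In the combination the mean levels per kilobase were 1010 CPM for Krt14 and 599 CPM for Krt5, and their ranges did not overlap with each other or with that of the third, Krt6b. Krt6b (310 CPM), Krt17 (292 CPM) and Krt16 (287 CPM) followed with overlapping ranges, then Krt6a (137 CPM), Krt10 (66.4 CPM) and Krt15 (44.0 CPM). Krt79 (14.0 CPM) and Krt1 (7.71 CPM) came last, and both have an annotated length of about 2 times their principal transcript, which lowers their value on this scale.

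Across the 12 tumors the log2 levels of any pair of the 10 keratins had a Pearson r between 0.94 (Krt5 and Krt79) and 0.99 (Krt14 and Krt17), a description over 45 pairs in which all points share the same libraries. The gene nearest in pattern to Krt14 was Col17a1, the hemidesmosome collagen of basal keratinocytes (r = 0.99). Next came Gm44383, Lce1b, Gm44323 and Lce1d (each r = 0.99). Of these, Gm44383 and Gm44323 overlap Krt6b and Krt5, and Lce1b and Lce1d are cornified envelope genes. For Krt10 the next after its overlapping gene Gm11940 were the cornified envelope genes Lce1a1, Lce1d and Lce1c, then Fam25c (each r = 0.99). Those nearest to Krt6a included its overlapping genes AC120787.5 (Gm49428) and Gm44342 and the gene Gm44383, which overlaps Krt6b, and further the desmosome gene Dsc3 and the cornified envelope gene Cnfn (r = 0.99 and 0.98). Overlapping genes can share reads, so their likeness is not independent. By Spearman correlation the 5 nearest genes had 0 in common with these for Krt14 (Sfn first), 0 for Krt10 (Trp63 first) and 1 for Krt6a (Dsc3).

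Other genes of the epidermis, in lists chosen for their role, were read beside the keratins. Of 10 genes of basal cells and hemidesmosomes, 4 were called higher with the combination than in control (Trp63, the master regulator of stratified epithelia, Lamb3, Lama3 and Sfn) and 0 lower. Between combination and trametinib 2 of the 10 were called higher, Lamb3 and Sfn. Of all genes 1.91% and 0.535% were called higher in these comparisons, and with 1 library left out the list had 2 to 5 calls, the most without control replicate 1, and 0 to 1. Trp63 had 10.0, 12.1 and 15.7 CPM with the combination, 9.89, 0.189 and 8.23 CPM with cediranib, 1.79, 0.101 and 0.202 CPM in control and 0, 1.05 and 0.167 CPM with trametinib. Col17a1 had 30.4, 29.7 and 35.0 CPM with the combination and at most 0.815 CPM with trametinib. Dst and Itgb4, the most abundant of the list, had log2 fold changes of 0.27 and 1.56 between combination and control, without a call.

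Among the suprabasal and cornified genes 12 of 17 were tested, of which 3 were called higher with the combination than in control (Tgm3, Lor and Sbsn) and 4 higher than with trametinib (Tgm3, Lor, Ivl and Tgm1). With 1 library left out these counts were 0 to 7, the most without control replicate 1, and 0 to 1, beside the same 1.91% and 0.535% of all genes in the full fit. Lor, a main protein of the cornified envelope, had 29.8, 38.9 and 30.1 CPM with the combination, 22.1, 3.22 and 17.4 CPM with cediranib, 7.49, 2.23 and 3.94 CPM in control and 1.54, 0.116 and 1.00 CPM with trametinib. Lce1a1, the most abundant of the list, had 35.7, 74.4 and 50.4 CPM with the combination and 0.0908, 0 and 0 CPM with trametinib.

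Ivl, involucrin, the precursor of the envelope, did not follow the keratins. It had 33.9 CPM in control replicate 2 and 33.0 CPM in cediranib replicate 2, where the 10 keratins summed to 11.6 and 6.62 CPM, but 7.15 CPM in control replicate 1 and 4.85, 7.26 and 5.38 CPM with the combination. With trametinib its count was 0 in each tumor. It was the 1 gene of this list called lower with trametinib than in control (FDR 0.00122 by edgeR), beside 1.43% of all genes. With each of these 6 libraries left out, 1 gene of the list was called lower.

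The partners of epidermal activation were tested for 8 of 16 genes. With the combination 5 were called higher than in control (S100a9, Sprr2d, Sprr2h, Sprr1b and Gjb2), beside 1.91% of all genes. Of these Sprr1b, a small proline-rich envelope protein, had 12.4, 27.0 and 10.3 CPM against 0.937, 0.811 and 0.303 CPM in control. With 1 library left out the list had 1 to 2 calls higher than in control. Against trametinib 1 was called higher (Sprr2h), beside 0.535% of all genes, and 0 with 1 library left out. Sprr1a, the most abundant of them, had 16.0, 16.1 and 18.8 CPM with the combination and 14.0, 25.0 and 25.2 CPM in control, a log2 fold change of -0.33 without a call. Hbegf, an EGF receptor ligand, was called lower with trametinib, and with the combination against both control and cediranib. Of all genes 1.43%, 1.71% and 1.16% were called lower, in that order. With each library left out 1 gene of the list was called lower in these comparisons. Of 8 other keratins 3 were tested. Krt13, a keratin of internal stratified epithelia, was called higher with the combination than in control and than with trametinib, beside 1.91% and 0.535% of all genes. It had 11.2, 11.3 and 9.19 CPM against 2.90, 4.26 and 2.32 CPM in control. With 1 library left out Krt13 was not called against trametinib, and against control not without control replicate 3 or combination replicate 1.

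Markers of other cell types differed between the tumors with high epidermal keratins. The 13 genes of the inner root sheath and hair shaft summed to 412, 229 and 563 CPM with the combination and 759 CPM in cediranib replicate 3, but to 1.70 CPM in cediranib replicate 1 and 1.11 CPM in control replicate 1, although the 10 epidermal keratins were high in both. Krt71, a keratin of the inner root sheath, had 355 CPM in cediranib replicate 3, 0.0999 CPM in cediranib replicate 1 and 213, 110 and 269 CPM with the combination. With the combination 5 of 12 tested genes of this list were called higher than in control (Krt25, Krt27, Krt34, Krt71 and Krt73), beside 1.91% of all genes. With any of the 6 libraries left out 0 were. Against cediranib 0 were called, beside 2.45% of all genes in either direction. Without cediranib replicate 3, 11 were called, beside 2.06% of all genes in either direction. The part of these cells in the level of Krt15, Krt17 and Krt79, which follicles also make, was not tested.

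**Figure D5:**
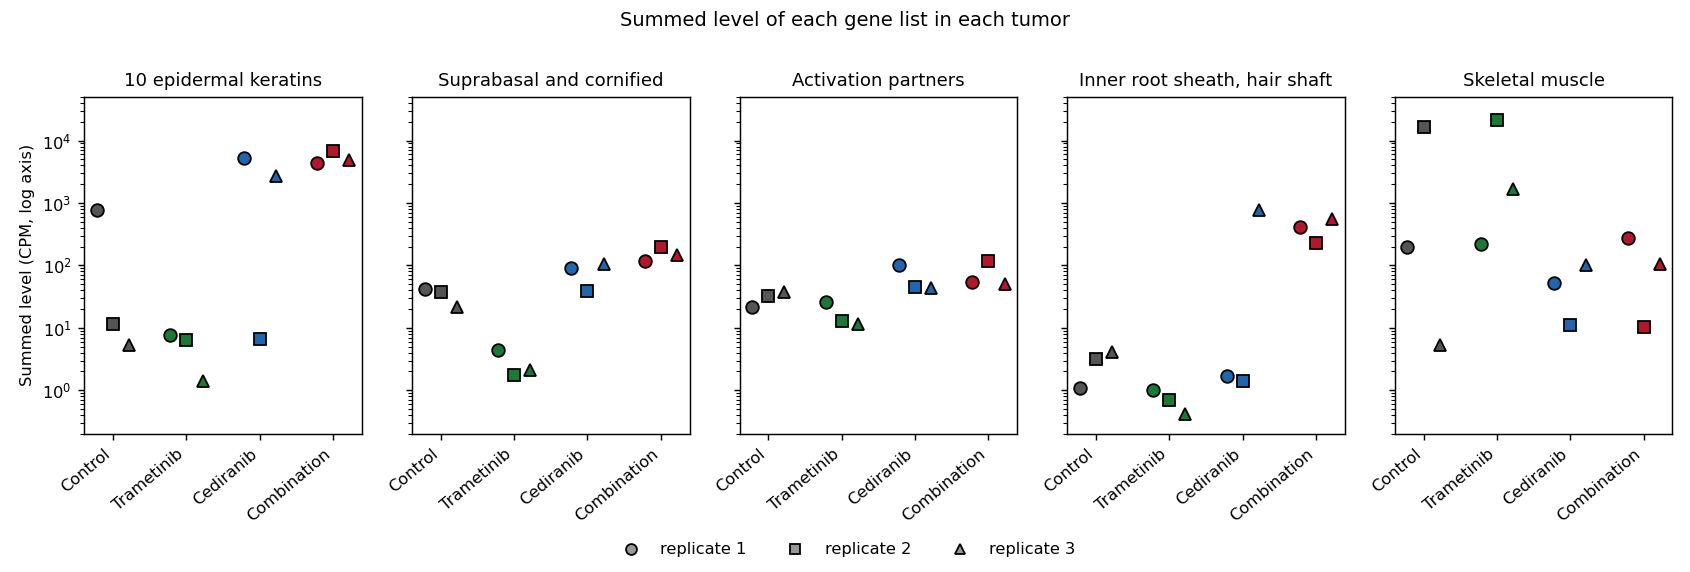
Each panel shows the summed level (CPM, log axis) of a gene list in each of the 12 tumors by treatment, with marker shapes for replicates 1 to 3. Cediranib replicate 1 and control replicate 1 are high for the 10 epidermal keratins but at 1.70 and 1.11 CPM for the hair genes, whereas cediranib replicate 3 and the 3 combination treated tumors are high for both.

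Endothelial genes mark the SVR cells and the vessels. Their sum over 6 genes was 177 to 365 CPM in control, 104 to 278 CPM with cediranib, 40.3 to 98.0 CPM with trametinib and 27.1 to 64.9 CPM with the combination. With the combination Tie1, Cdh5, Kdr and Pecam1 were called lower than in control, and with trametinib Tie1, Cdh5 and Pecam1 were. Of all genes, 1.71% were called lower with the combination and 1.43% with trametinib, both against control. The combination against cediranib called 1.16% lower, among them Tie1, Cdh5 and Pecam1. With 1 library left out trametinib had 0 to 4 calls lower against control, 0 without trametinib replicate 3 and 4 without control replicate 1. The combination had 1 to 4 against control and 1 to 3 against cediranib, with the fewest without combination replicate 2 in both and as few against cediranib without its replicate 1 or combination replicate 3. The ranges of trametinib and the combination thus overlapped for this list, while they did not for the sum of the 10 keratins.

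The 7 skeletal muscle genes summed to 16298 CPM in control replicate 2 and 21681 CPM in trametinib replicate 2, and to 10.3 to 270 CPM with the combination, with 0 calls in these comparisons. The 5 fibroblast genes summed to 1656 to 4667 CPM with the combination and 6917 to 35310 CPM with trametinib, with 0 calls, and the 5 adipocyte genes to 0.507 to 9.55 CPM over all tumors. The sebaceous list (9 genes, 3 tested) summed to 39.6 to 109 CPM with 0 calls. The list of follicle stem cells and infundibulum (8 genes, 5 tested) had 1 call. This was Lhx2, higher with the combination than in control, beside 1.91% of all genes. With 1 library left out that list had 1 call without control replicate 1 and 0 without each of the 5 others. The 4 melanocyte genes summed to at most 0.766 CPM, and none passed the filter. How much tissue of each kind was taken with a tumor was not tested.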

How the data were processed

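RNA of 12 tumors, 3 per treatment, was captured with TruSeq RNA Exome probes and sequenced, so a gene's count also depends on its probes. The authors aligned reads to GRCm38 with STAR 2.7.1a using featureCounts 1.6.0 to count per gene, and the deposited values are raw counts without normalization. The sources used here give neither a strand setting nor an annotation release, nor say how multimapping reads were treated. Groups came from the sample titles and treatment labels. Every column of counts belonged to 1 of these tumors.

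TMM normalized counts were fitted with edgeR 4.0.16 in R 4.3.3 (glmQLFit and glmQLFTest, all 12 libraries, filterByExpr with a minimum count of 10 and a minimum total of 15). Calls needed an FDR of 0.05 and a change of 1.5 on the log2 scale, the paper's threshold. A standard error is the size of the log2 fold change over the root of its F statistic, and the biological coefficient of variation was 27.2%. Correlations used log2 CPM with a prior count of 2. Class shares are raw counts, and ratios add 0.5 CPM to each level. Folds against a group at 0 counts are bounds against 3 counts over the group. The quasi-likelihood test, for combination against trametinib, and the exact permutation test without a block were tried on simulated data. The alternative tests were not. Labels give each tumor as a separate sample and the methods inject each mouse once, so the p-values measure the spread between tumors.

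Of the gene identifiers 54079 were in GENCODE M21, and all 10 keratins had the same coordinates there. RefSeq start regions were matched by symbol for 4 of the 10 keratins. That of Krt14 begins inside the gene, and those of Krt14 and Krt79 are not shown. The members and lists were chosen with earlier results of these data known. Genes reported singly were the 10 keratins, the 3 most abundant genes of each further list, the called genes of those lists, and the 5 genes nearest in pattern to Krt14, Krt10 and Krt6a. Alternatives were DESeq2 1.42.0, its size factors, library totals, no filter, the likelihood ratio test, the compared groups alone, a replicate block, pseudocounts of 0.1 and 2 CPM, shares per kilobase, Spearman correlation and each library left out.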

Additional observations from a re-analysis of the deposited data

Results flagged for a closer look

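All 10 keratins had a lower estimate with trametinib than in control and a higher one with the combination than with cediranib, and Krt15 was singled out because its groups overlapped in neither comparison. All 3 trametinib treated tumors (0 to 0.272 CPM) lay below all 3 control tumors (0.405 to 9.96 CPM), and all 3 combination treated tumors (51.3 to 105 CPM) lay above all 3 cediranib treated tumors (0.0946 to 38.7 CPM). The difference between the effects was 6.95 on the log2 scale (standard error 2.30), with an unadjusted p of 0.0106 and an FDR of 0.654 by edgeR, so it did not pass the test over all genes. Its estimates were not called in either comparison in the main edgeR fit. DESeq2 and the fit without a filter on low counts did call it between trametinib and control. The estimate between combination and cediranib was 1.70 (standard error 1.05).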

How the results depend on the processing

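The number of the 10 keratins called depended on the method. Without a filter on low counts trametinib gave 10, cediranib 8 and the combination 10 against control, the combination gave 10 against trametinib and 3 against cediranib, and the interaction gave 10, beside 2.36%, 1.11%, 3.88%, 2.66%, 2.19% and 0.897% of the 29102 genes tested. In that fit the FDRs of the keratins for combination against control by edgeR lay between 3.42e-155 and 7.60e-28. DESeq2 gave 5 for trametinib and 2 for the combination (Krt16 and Krt17, without Krt15) against control, and 10 between combination and trametinib, and the likelihood ratio test gave 7, 3 and 10 for these comparisons, beside 3.57%, 5.33% and 3.11% of all genes. Fits of the compared groups alone gave 4 between combination and control, beside 4.04% of all genes, and 10 between combination and trametinib, and library totals gave 2 in this last comparison. The cause was not tested. With each library left out, the combination gave 0 to 9 calls against control and 0 to 0 against trametinib. DESeq2's size factors changed no count.

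Replicate numbers are shared between groups, but same-numbered tumors deviated together only weakly (r from -0.22 to 0.36 over all genes), so they were not taken as pairs. With the replicate block the combination had 4 keratins called against control (Krt6a, Krt15, Krt16 and Krt17) and 1 against trametinib. For the ratios the block changed no call. With its 64 arrangements the smallest possible exact permutation p was 0.03125. A single ratio could therefore not pass the adjustment over 10 tests, and a call was hardly possible.

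Leaving out 1 library turned 5 estimates, with ranges of -6.70 to 1.20 (Krt5) and -6.66 to 0.0037 (Krt10) for trametinib against control, and -0.084 to 1.88 (Krt6a), -0.24 to 1.32 (Krt17) and -0.17 to 1.37 (Krt79) for combination against cediranib. Ratio differences with cediranib ranged from -2.67 to -1.86 (Krt10 to Krt14), -3.56 to -2.56 (Krt1 to Krt5), -1.54 to -0.88 (Krt16 to Krt14), -3.38 to -2.11 (Krt15 to Krt14) and -1.20 to -0.32 (Krt6a to Krt5). With trametinib they ranged from -0.053 to 0.75, -0.63 to 0.56, -0.16 to 0.50, -0.71 to 0.56 and -0.82 to 0.070 for the same ratios. With 2 CPM added, Krt15 to Krt14 with trametinib was 0.10 in place of -0.01, and with 0.1 CPM it was -0.38. Every cediranib difference grew in size with the amount added. For Krt1 to Krt5 it was -2.09 with 0.1 CPM, -2.97 with 0.5 CPM and -3.43 with 2 CPM. Per kilobase of exon the suprabasal share in the combination was 2.65% and that of Krt79 0.501%, and per kilobase of principal transcript, an alternative chosen after seeing the data, the suprabasal share was 2.82%.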
